A study of Homo sapiens with 4 samples.

Results

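The enzymes described here make serine, pass its side-chain carbon to folate, move that carbon between folate forms and break glycine down. They are 10 genes: PHGDH, PSAT1 and PSPH of serine synthesis, SHMT1 and SHMT2, MTHFD1, MTHFD2 and ALDH1L1 of folate metabolism, and GLDC and AMT of glycine cleavage. They were taken by name, as probe sets of the array whose annotation gives that gene alone, and all 10 were found among the 19775 genes that could be named. Together they are read by 19 probe sets, groups of short probes against a transcript; 3 more that list a member beside other genes (2 for SHMT1 and 1 for PHGDH) were left out. RNA came from HepG2, an established human hepatoma line, grown in 25 mM glucose with 10% serum and transfected at about 50% confluence; it was taken after 4 days of culture. The study asked what the histone demethylase LSD1 does in the metabolism of liver cancer cells. The 2 control arrays hold cells transfected with siRNA against GL3, and the 2 knockdown arrays hold cells in which LSD1 was targeted, 1 by the sequence called siRNA-1 and 1 by siRNA-2. No label states that a group's arrays came from separate cultures. Errors and p-values therefore cover only how far these arrays scatter, possibly for technical reasons. For knockdown against control, that scatter also holds any difference between siRNA-1 and siRNA-2. Each SE below is moderated by limma, which draws the spread of a gene toward a value shared by all genes.

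Serine is built from the glycolytic intermediate 3-phosphoglycerate by PHGDH, PSAT1 and PSPH acting in that order. The serine hydroxymethyltransferases then split serine into glycine and a carbon unit bound to tetrahydrofolate, SHMT1 in the cytosol and SHMT2 in mitochondria. The bound carbon is oxidised or reduced by the MTHFD enzymes for the making of purines, thymidylate and methionine, and ALDH1L1 can release it as carbon dioxide. The glycine cleavage system, to which GLDC and AMT belong, is a mitochondrial complex of liver and some other tissues that breaks glycine into carbon dioxide, ammonia and a folate-bound carbon.

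The deposited values, taken here as log2, were centred by the authors so that each probe set has a median of 0 over the 4 arrays. Differences between arrays therefore remain and levels do not, and the middle 2 arrays of a probe set mirror each other. A value given for a gene or probe set without its 4 array values is a difference from the control mean, unless it compares the siRNAs. A stand-in for level, the numeric step left in the values, put 8 of the 10 genes at 8 or above, ALDH1L1 from 4 to 8 and SHMT1 below 4, the dimmest class. KDM1A, the gene of LSD1, read 1.23 and 1.17 on the controls, -1.55 with siRNA-1 and -1.17 with siRNA-2. Its levels with either sequence lay far below both controls, a difference of -2.56 ± 0.16 (SE, n = 2 arrays per group, limma adjusted p = 0.0862). The siRNA-2 array had the widest spread over all probe sets (SD 0.384, against 0.154 to 0.197 on the others). Of 9 hepatocyte marker genes measured, all 9 were in the brightest class, and of 11 markers of blood, vessel, connective and skin cells 2 (CD14 and ACTA2) were in the brightest, 4 from 4 to 8 and 5 in the dimmest (PTPRC, VWF, CDH5, KRT5 and CD3E). In bulk RNA of this kind, fewer cells making a transcript and less of it per cell cannot be told apart. Technical controls ran along the same split of arrays. RNAs spiked in at hybridization had a median difference of 1.36 between knockdown and control over 18 probe sets, and the 5′ end of ACTB, set against its 3′ end, differed by -0.61 (-0.18 for GAPDH). The part of these shifts in the results below was not tested.

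Most of the 10 genes, each read by 1 probe set, lay apart from the controls on both knockdown arrays, but not in 1 direction. On the probe set used for each gene, PHGDH, MTHFD2, ALDH1L1, GLDC and AMT were higher with both siRNAs than on both controls, PSAT1, SHMT1 and SHMT2 were lower, and PSPH and MTHFD1 overlapped the controls. For PSAT1 and MTHFD2 another probe set lay on the opposite side, and for ALDH1L1 and SHMT1 another overlapped the controls. Such separation was common on these arrays: of all genes 23.7% were higher and 25.4% lower in the same sense. The median difference over the 10 was 0.17, against 0.00 over all genes.

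None of the 10 passed the test of knockdown against control over all genes (limma, 0 of 10; adjusted p from 0.196 for PSAT1 to 0.84 for MTHFD1). Only 0.00506% of all genes did, a single gene. At an unadjusted p under 0.05 there were 5 of the 10, 4 higher and 1 lower, where 14.7% of all genes lay. A p-value above the threshold does not show that a gene stayed the same with 2 arrays in a group, and an exact permutation of these arrays cannot go below a two-sided 0.33.

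Tested singly, the siRNAs gave different counts. With siRNA-2, 6 of the 10 passed (limma with 3 groups, where the spread comes from the 2 controls alone and a lone array is taken to vary like them). The probe sets used for PSPH, ALDH1L1, GLDC and AMT were higher, where 13.6% of all genes were called higher, and those for PSAT1 and SHMT2 lower, where 10.4% were called lower; 24.0% of genes were called in all. The calls for PSAT1 and ALDH1L1 were not shared by an equally bright second probe set, and with the last identifier in place of the first 4 of the 10 passed. With siRNA-1, 0 of the 10 passed in limma, and 0.0% of all genes did. The smallest adjusted p that any gene reached was 0.0842. KDM1A itself had that value, at a difference of -2.75 (-2.37 with siRNA-2), so this test did not call the targeted gene either. At an unadjusted p under 0.05 there were 5 of the 10 against 26.9% of all genes. The size of the response also differed by array. The median absolute difference over the 10 genes was 0.24 for siRNA-1 but 0.59 for siRNA-2, against 0.16 and 0.22 over all genes, and 9 of the 10 lay further from the controls with siRNA-2. Direction was shared by the siRNAs in 8 of the 10. Both differences use the same control mean, so a shared direction is not independent agreement. For neither count, 9 or 8 of the 10, was the share over all genes computed. In the test of siRNA-2 against siRNA-1, PSPH and ALDH1L1 passed, both higher with siRNA-2, where 7.09% of all genes were called and 4.15% were called higher.

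**Figure D1:**
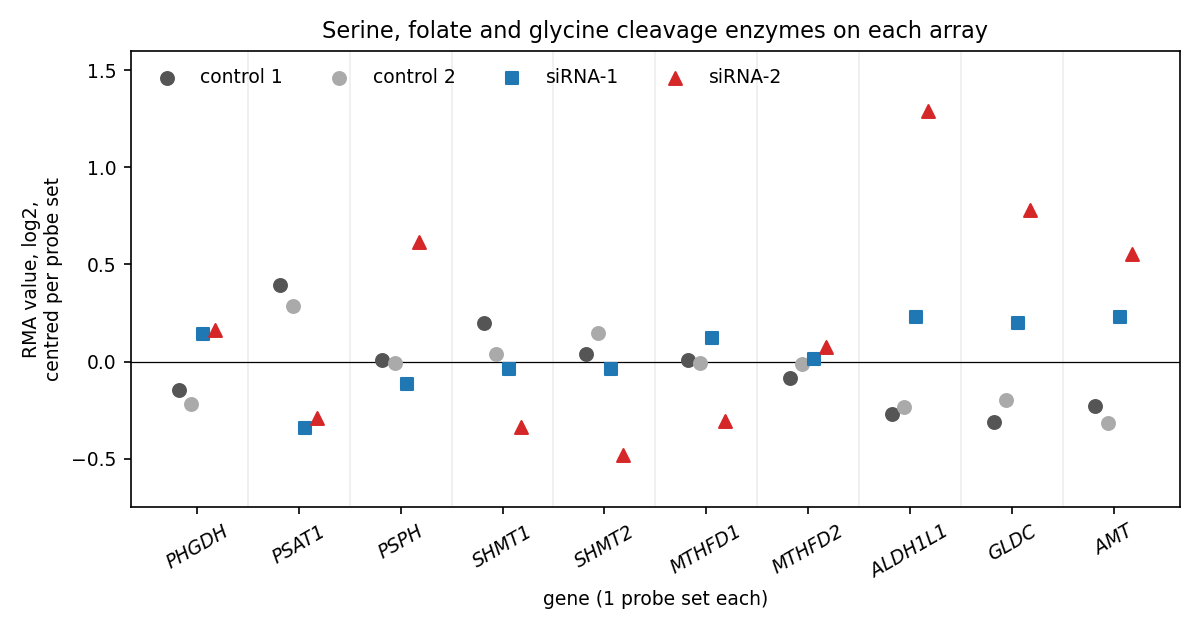
Value of each of the 10 genes on each of the 4 arrays (vertical axis, RMA value on the log2 scale, centred per probe set; 1 probe set per gene; circles controls, squares siRNA-1, triangles siRNA-2). The controls lie within 0.16 of each other for every gene, whereas the triangles of ALDH1L1, GLDC, PSPH and AMT stand at 1.29, 0.78, 0.62 and 0.56.

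In serine synthesis, the 3 enzymes did not move as a unit on the probe sets used, but this depends on the PSAT1 probe set. With its other bright probe set, PHGDH, PSAT1 and PSPH were all higher with siRNA-2 (0.34, 0.28 and 0.62). With siRNA-1 they then read 0.33, 0.29 and -0.12. PHGDH, the dehydrogenase that commits 3-phosphoglycerate to serine, read -0.14 and -0.22 on the controls, 0.14 with siRNA-1 and 0.16 with siRNA-2. Both knockdown arrays were above both controls and close to each other. PHGDH therefore differed by 0.33 ± 0.10, a 1.26-fold level (moderated SE, 2 arrays per group, limma adjusted p = 0.295). Singly it differed by 0.33 for siRNA-1 and 0.34 for siRNA-2. The latter had a limma adjusted p of 0.068 (0.0489 with array medians subtracted and 0.0421 without dim genes).

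PSAT1, the aminotransferase of the second step, is read by a pair of bright probe sets that differed in opposite directions. The probe set 220892_s_at read 0.39 and 0.29 on the controls, -0.34 with siRNA-1 and -0.29 with siRNA-2. Both knockdown arrays were lower than both controls, by -0.66 ± 0.11 (SE, n = 2 arrays per group), a level 1.58-fold lower (limma adjusted p = 0.196). With siRNA-2 alone it was the PSAT1 value that passed (-0.63, limma adjusted p = 0.0318), and with siRNA-1 the difference was -0.69. The probe set 223062_s_at, in the same brightness class, read -0.19 and -0.13 on the controls and 0.13 on each knockdown array. There both knockdown arrays were higher, by 0.29 ± 0.11, and with siRNA-2 the 0.28 did not pass (adjusted p = 0.109, over all probe sets tested singly). The first was used for the gene only because its identifier comes first, so the direction given for PSAT1 is that of a probe set and not of the gene. The mean of both differed by -0.17 with siRNA-2 (adjusted p = 0.149). Where the probe sets lie along the transcript was not analysed here, and the part of the 5′ to 3′ shift seen at ACTB was not tested.

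PSPH, the phosphatase that releases serine, differed between the siRNAs. It read 0.01 and -0.01 on the controls, -0.12 with siRNA-1 and 0.62 with siRNA-2. Only the siRNA-2 array was above the controls, and the siRNA-1 array lay below them. PSPH rose 1.53-fold with siRNA-2 (0.62 ± 0.07, SE from the controls; limma adjusted p = 0.0246) and exceeded siRNA-1 by 0.73 ± 0.08 (adjusted p = 0.0468; 0.0606 with every probe set tested singly). Over both arrays the difference was 0.25 ± 0.27, smaller than its error. Its further probe sets, 205048_s_at and the dim 244819_x_at, differed from the control mean by 0.48 and 0.80 with siRNA-2. With siRNA-1 they differed by -0.19 and 0.11. All 3 therefore were higher with siRNA-2, and they disagreed in sign with siRNA-1. PSPH, PSAT1, MTHFD2 and SHMT1 have pseudogenes in the RefSeq gene list, and probe sets ending in _s_at or _x_at can match more than 1 transcript, so these values are less certain as to source.

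Promoter sequence is shown for PSAT1, whose probe sets disagree, and for GLDC and AMT, which moved the same way. Each stretch holds the 250 bases before the RefSeq start (GRCh38.p14), on the strand of the gene, with capitals for 2 short motifs: the CCAAT box (CCAAT or, on the other strand, ATTGG) and the GC box (GGGCGG or CCGCCC). PSAT1 lies at chr9:78296875-78297124 on the plus strand, GLDC at chr9:6645730-6645979 on the minus strand and AMT at chr3:49422474-49422723 on the minus strand.
PSAT1: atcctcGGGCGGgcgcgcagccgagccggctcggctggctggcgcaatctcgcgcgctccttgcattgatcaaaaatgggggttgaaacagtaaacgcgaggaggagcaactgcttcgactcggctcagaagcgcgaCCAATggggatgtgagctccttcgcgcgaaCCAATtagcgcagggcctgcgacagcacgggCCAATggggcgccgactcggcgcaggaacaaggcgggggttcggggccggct
GLDC: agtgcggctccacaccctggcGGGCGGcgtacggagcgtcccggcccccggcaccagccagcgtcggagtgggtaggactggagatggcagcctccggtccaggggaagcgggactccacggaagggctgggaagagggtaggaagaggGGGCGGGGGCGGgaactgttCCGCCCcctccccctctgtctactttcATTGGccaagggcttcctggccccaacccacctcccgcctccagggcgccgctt
AMT: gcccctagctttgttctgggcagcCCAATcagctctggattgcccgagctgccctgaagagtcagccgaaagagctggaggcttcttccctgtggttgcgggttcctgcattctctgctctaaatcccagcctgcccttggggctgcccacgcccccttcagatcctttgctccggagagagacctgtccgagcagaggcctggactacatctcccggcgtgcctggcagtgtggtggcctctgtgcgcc

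PSAT1 holds 3 CCAAT boxes, which begin 113, 83 and 52 bases before the start, and GLDC and AMT hold 1 each. GLDC has 4 GC boxes, PSAT1 has 1 and AMT has 0. RefSeq promoters were matched for 8 of the 10 genes, with 2 starts for ALDH1L1; PSPH and SHMT2 promoters were not analysed here. A CCAAT box was found in 7 of these 9 windows, against 32.0% of all promoter windows, and a GC box in 4 of the 9, against 42.6%. The core of the element bound by C/EBP and ATF4 proteins, TGATGNAA on either strand, was found in 0 of the 9 and in 3.14% of all. In the 3 stretches shown no motif overlaps another. These are matches of letters in a window, not measured binding.

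The serine hydroxymethyltransferases, which hand the carbon of serine to folate, both read lower. SHMT2, the mitochondrial enzyme, read 0.04 and 0.14 on the controls, -0.04 with siRNA-1 and -0.48 with siRNA-2. Both knockdown arrays were below both controls, the siRNA-1 array only just. SHMT2 fell with siRNA-2 (-0.57 ± 0.09, moderated SE, 1.49-fold lower, limma adjusted p = 0.0365). With siRNA-1 it differed by -0.13 (adjusted p = 0.416). Its other probe sets, 214096_s_at and 214437_s_at, went the same way on every knockdown array, with -0.35 and -0.44 for siRNA-2 and -0.04 and -0.11 for siRNA-1. SHMT2 was the member with the most bright probe sets, 3, and they shared 1 direction.

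SHMT1, the cytosolic enzyme, was read by dim probe sets. The value used was 0.20 and 0.04 on the controls, -0.04 with siRNA-1 and -0.34 with siRNA-2. Both knockdown arrays were lower, but the controls also differed by 0.16, the widest gap between controls among the 10. The difference of -0.31 ± 0.15 did not pass (limma adjusted p = 0.432; with siRNA-2 -0.46, adjusted p = 0.071). A second dim probe set, 231701_s_at, differed by 0.02 over both arrays and overlapped the controls. No statement on SHMT1 therefore goes beyond that single probe set.

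Of the folate-interconverting enzymes, ALDH1L1 had the largest change among the 10. This cytosolic dehydrogenase, abundant in liver, removes formyl groups from folate as carbon dioxide. It read -0.27 and -0.23 on the controls, 0.23 with siRNA-1 and 1.29 with siRNA-2. Both knockdown arrays were above the controls, siRNA-2 much more so. On this probe set ALDH1L1 rose 2.91-fold with siRNA-2 (1.54 ± 0.07, moderated SE, limma adjusted p = 0.0154). With siRNA-1 it differed by 0.48 (adjusted p = 0.103). The excess of siRNA-2 over siRNA-1 was 1.06 ± 0.08 (adjusted p = 0.0419; 0.054 with every probe set tested singly), and the difference over both arrays 1.01 ± 0.37 (adjusted p = 0.339). A second ALDH1L1 probe set of the same class, 215798_at, did not follow: it read -0.03 and 0.27 on the controls, -0.12 with siRNA-1 and 0.03 with siRNA-2. Its controls differed by more than its knockdown arrays did from their mean, and with it in place of the first the siRNA-2 value was -0.09 (adjusted p = 0.723).

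MTHFD1, the cytosolic enzyme with dehydrogenase, cyclohydrolase and synthetase activities, differed in sign between the siRNAs. It read 0.01 and -0.01 on the controls, 0.12 with siRNA-1 and -0.31 with siRNA-2. Its knockdown arrays lay on opposite sides of the controls. The siRNA-2 value (-0.31, limma adjusted p = 0.066; 0.039 without dim genes) and the difference between the siRNAs (-0.43, adjusted p = 0.0726) did not pass. Its dim second probe set, 239846_at, overlapped the controls and differed from them by -0.07 (siRNA-1) and 0.02 (siRNA-2).

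MTHFD2, the mitochondrial dehydrogenase and cyclohydrolase that is typical of proliferating cells, differed little. It read -0.09 and -0.01 on the controls, 0.01 with siRNA-1 and 0.07 with siRNA-2, all within 0.16 of one another. The difference was 0.09 ± 0.10 (limma adjusted p = 0.709). As for PSAT1, another probe set lay on the opposite side: 234976_x_at read 0.11 and 0.17 on the controls, -0.11 with siRNA-1 and -0.22 with siRNA-2, a difference of -0.31 ± 0.11. PSAT1 and MTHFD2 thus are 2 of 5 members with at least 2 probe sets outside the dimmest class in which 1 set was above and another below both controls. Such a split was seen in 13.0% of the 6865 genes with at least 2 such probe sets.

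**Figure D2:**
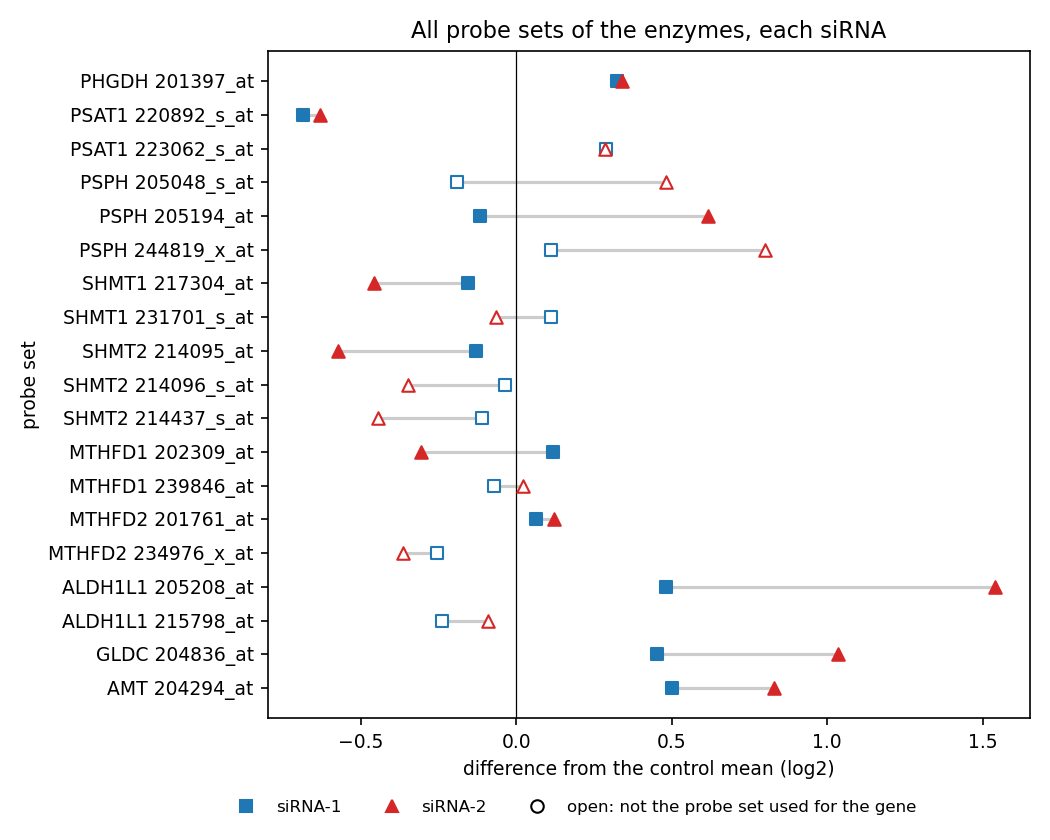
Difference from the control mean (horizontal axis, log2) for all 19 probe sets of the 10 genes, with squares for siRNA-1 and triangles for siRNA-2; filled marks are the probe set used for the gene, open marks the others. PSAT1 shows -0.63 and 0.28 with siRNA-2 in its pair of probe sets, while the 3 probe sets of SHMT2 all lie left of 0 and those of PSPH all lie right of 0 with siRNA-2.

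The glycine cleavage genes GLDC and AMT were higher together. GLDC encodes the glycine decarboxylase that starts the reaction. It read -0.31 and -0.20 on the controls, 0.20 with siRNA-1 and 0.78 with siRNA-2. Neither knockdown array overlapped the controls. GLDC rose 2.05-fold with siRNA-2 (1.04 ± 0.09, moderated SE, limma adjusted p = 0.0199). With siRNA-1 it differed by 0.45 (adjusted p = 0.119). The difference over both arrays was 0.74 ± 0.22 (adjusted p = 0.295).

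AMT encodes the aminomethyltransferase that hands the carbon to folate. It read -0.23 and -0.32 on the controls, 0.23 with siRNA-1 and 0.56 with siRNA-2. As for GLDC, both knockdown arrays were above the controls, and the siRNA-2 array was the higher. AMT rose 1.78-fold with siRNA-2 (0.83 ± 0.08, limma adjusted p = 0.0221) and differed by 0.50 with siRNA-1 (adjusted p = 0.108). Over both arrays the difference was 0.66 ± 0.15 (limma adjusted p = 0.242). Each gene is read by 1 probe set, so neither has a second reading on the array. The excess of siRNA-2 over siRNA-1 did not pass for GLDC (0.58, adjusted p = 0.0695) or AMT (0.33, adjusted p = 0.125). Hepatocyte markers were higher on these arrays too: 8 of 9 lay above both controls on each knockdown array and 0 below (median difference 0.37), and 4 rose and 0 fell with siRNA-2. Over all genes the shares were 23.7% above and 25.4% below both controls, and with siRNA-2 13.6% were called higher and 10.4% lower. Of 11 measured markers of other cell types, 3 rose and 2 fell with siRNA-2, beside the same 13.6% and 10.4% of all genes. COL1A1, a collagen of connective tissue, rose 6.30-fold, ACTA2, a smooth muscle actin, 3.36-fold and CD14, a receptor of monocytes that hepatocytes also make, 3.28-fold (limma adjusted p = 0.0154 each), and PECAM1, of endothelium, fell (-0.78, adjusted p = 0.0246). The part of either marker list in the values of GLDC, AMT and ALDH1L1 was not tested.

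The other measured genes of glycine cleavage and its lipoate cofactor overlapped the controls, except DLD. GCSH, which carries the aminomethyl group, read 0.06 over both arrays, DLD, the dehydrogenase shared with other complexes, 0.11, and the lipoate genes LIAS and LIPT1 -0.14 and -0.0043. LIAS differed in sign between the siRNAs, with -0.41 for siRNA-1 (limma adjusted p = 0.112) and 0.13 for siRNA-2. None of these 4 passed in any of the tests against control, with the smallest limma adjusted p at 0.652 for knockdown against control.

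Other genes of serine, glycine and folate metabolism came from 5 lists with 48 genes, of which 40 were measured. On both knockdown arrays 12 of the 40 were higher and 8 lower than both controls, beside 23.7% and 25.4% of all genes, and the median difference was -0.01. None passed for knockdown against control (limma, 0 of 40). At an unadjusted p under 0.05 there were 7 of the 40, beside 14.7% of all genes. With siRNA-2 6 rose and 9 fell. Over all genes, as given above, 13.6% were called higher and 10.4% lower with siRNA-2.

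The lowest siRNA-2 values of the 40 were those of SLC25A32 and MTFMT. SLC25A32, the carrier that brings folate into mitochondria, read 0.25 and 0.17 on the controls, -0.17 with siRNA-1 and -2.06 with siRNA-2. It fell with siRNA-2 (-2.26 ± 0.08, adjusted p = 0.0154), and siRNA-1 gave -0.37 (adjusted p = 0.126), a difference between the siRNAs of -1.89 (limma adjusted p = 0.0419). MTFMT uses formyl folate to charge the mitochondrial initiator tRNA. It fell with siRNA-2 as well (-1.60, limma adjusted p = 0.0154) and differed from the control mean by -0.07 with siRNA-1. Each has 1 probe set. Other mitochondrial folate genes read closer to 0 with siRNA-2 (ALDH1L2 0.13, MTHFD2L 0.04 and the dim MTHFD1L -0.18). MTR and MTRR, methionine synthase and its reductase, also fell with siRNA-2 (-0.86 and -0.64, adjusted p = 0.0194 and 0.0259), in each case with a second probe set that was lower too (-0.50 and -0.82). With siRNA-1 MTR read 0.01 and 0.39 on its pair of probe sets and MTRR -0.22 and -0.24, and the difference between the siRNAs passed for MTR (limma adjusted p = 0.0432) and not for MTRR (0.0805).

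Other members of the lists rose. SRR, serine racemase, had the largest increase with siRNA-2 (2.36 ± 0.07, limma adjusted p = 0.0154; 0.50 with siRNA-1), and its further probe sets of the same class read 1.30, 1.31 and -0.23. GGH, the hydrolase that trims folate polyglutamates, rose with siRNA-2 (0.89, adjusted p = 0.0178; 0.45 with siRNA-1). PIPOX, the peroxisomal oxidase of pipecolate and sarcosine, was the pathway gene with the smallest unadjusted p for knockdown against control in these lists (0.71 ± 0.15, adjusted p = 0.218). It was higher with siRNA-1 (0.87) than with siRNA-2 (0.56, adjusted p = 0.0349). GCAT, a mitochondrial enzyme that yields glycine from threonine carbon, read -0.35 ± 0.10 over both arrays and nearly the same with each siRNA (-0.37 and -0.34), on each of its probe sets.

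Of 11 measured serine and glycine transport genes, 3 fell and 1 rose with siRNA-2, beside 10.4% and 13.6% of all genes. The 1 that rose was SLC25A38, in the dimmest class (0.46, limma adjusted p = 0.0351). Those that fell were the serine transporters of the mitochondrial membrane, SFXN1 and its relatives SFXN2 and SFXN3 (-0.68, -0.62 and -0.73, limma adjusted p from 0.0221 to 0.0243). With siRNA-1 these SFXN genes read 0.39, 0.55 and 0.03, and the difference between the siRNAs passed for all 3 (adjusted p from 0.0419 to 0.0471). SFXN1 and SFXN3 were read by probe sets ending in _x_at, which can match more than 1 transcript.

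**Figure D3:**
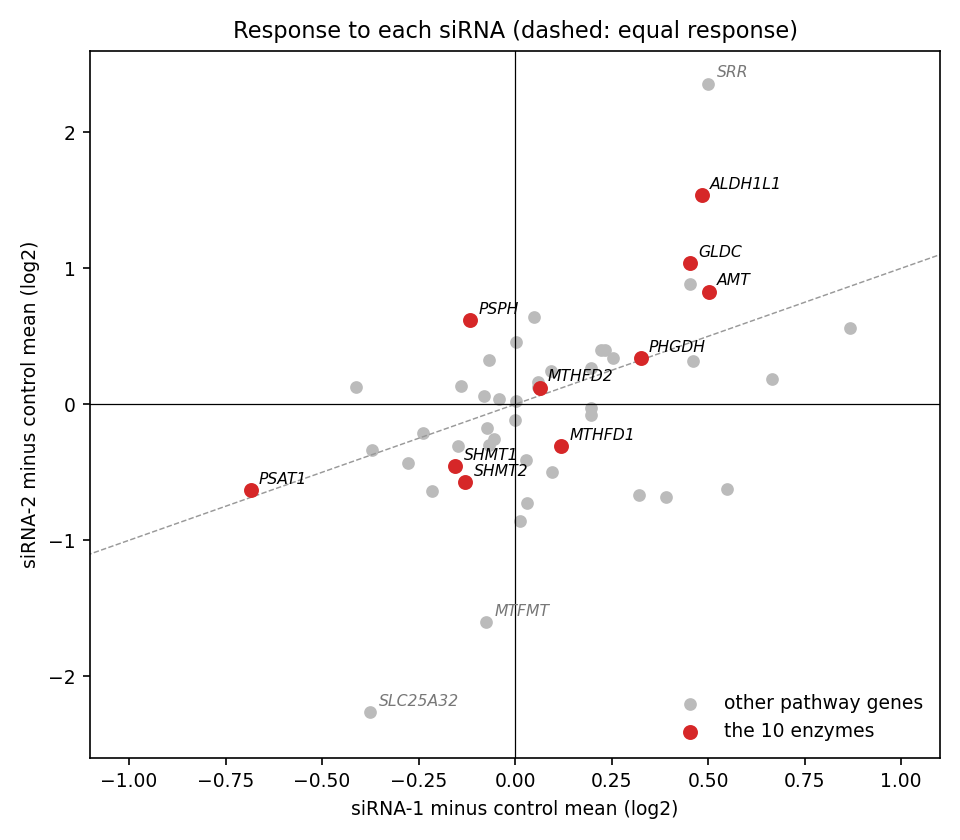
Difference from the control mean with siRNA-1 (horizontal axis, log2) and siRNA-2 (vertical axis, log2) for the 10 enzymes (red) and 40 other genes of the pathway (grey); the dashed line marks equal response, and the axes differ in scale. PSAT1 and PHGDH lie by the line, ALDH1L1, GLDC and AMT above it on the right, and SRR and SLC25A32 mark the ends at 2.36 and -2.26.

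Purine synthesis, which takes carbon from formyl folate and glycine, read lower. Of 11 measured genes, 7 lay below both controls on each knockdown array and 0 lay above, where 25.4% and 23.7% of all genes did. Their median difference was -0.30, made up of -0.10 for siRNA-1 and -0.39 for siRNA-2. None passed for knockdown against control (limma, smallest adjusted p = 0.295), and with siRNA-2 7 fell and 0 rose, against 10.4% and 13.6% of all genes. GART (-0.95, adjusted p = 0.0172) and ATIC (-0.49, adjusted p = 0.0329), which use formyl folate directly, were among those that fell with siRNA-2, and with siRNA-1 they read 0.07 and -0.11.

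ATF4, the transcription factor of the amino acid response that is known to drive serine synthesis genes, read -0.02 ± 0.11 over both arrays (limma adjusted p = 0.954). Over 20 genes of ATF4 and its known targets the median was 0.01; on each knockdown array 4 lay above both controls and 4 below, beside 23.7% and 25.4% of all genes. DDIT3, a stress-response factor with the smallest unadjusted p of the list, differed by -0.56 (siRNA-1) and -0.36 (siRNA-2), and WARS1, a tRNA synthetase, by -0.44 and -0.22; neither passed in limma. Of the 20 genes, 5 rose on the siRNA-2 array while 0 fell, beside 13.6% and 10.4% of all genes, among them ASNS (0.41, adjusted p = 0.048), an amide synthetase, and NUPR1 (2.89, adjusted p = 0.0154). Among 5 further regulators reported for serine synthesis genes, 2 fell with siRNA-2, beside 10.4% of all genes. They were MYC (-0.64, limma adjusted p = 0.024) and MDM2 (-1.01, adjusted p = 0.0184). With siRNA-1 these differed by -0.02 and -0.215 (adjusted p = 0.902 and 0.217). None of the 5 passed for knockdown against control (smallest adjusted p = 0.416).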

How the data were processed

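The deposited log2 values were made by the authors with RMA, per the submitters' processing notes, and the values show that they were then centred on the median of each probe set. RMA works in log2, and no source used here states the base, the version or a joint normalization of the arrays. Arrays give no counts; their number limits precision.

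Gene names come from GEO's annotation of the platform; gene identifiers then gave current symbols (RefSeq, GRCh38.p14). A single gene is named for 41097 probe sets and several genes for 1801 (not used). Per gene the brightest class was taken (8 or above, 4 to 8, below 4, from the numeric step of the values), then probe sets without _a, _s or _x, then the first identifier. Differences were tested with limma 3.58.1 (R 4.3.3), two-sided, with Benjamini-Hochberg adjustment over all 19775 genes and a threshold of 0.05. Limma's moderation drew the spread of each gene toward an SD of 0.133 with 2 groups and 0.066 with 3 groups. The code was tested on simulated data. All members were described with every probe set, and from each other list up to 4 genes with the smallest p were eligible for naming. SFXN1, SFXN2, SFXN3, SLC25A38, GART, ASNS, ATF4, ALDH1L2, MTHFD2L and MTHFD1L were named by role or after their values were seen. The members and lists were chosen with earlier results of these data known. Same-numbered arrays showed no shared deviation (r = 0.035 over genes), and no pairing was used. The knockdown arrays also differ in siRNA, so this value cannot exclude a pairing. Alternatives covered the choice and averaging of probe sets, dim genes, array medians, robust moderation, the replicate block and leaving out each array.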

Additional observations from a re-analysis of the deposited data

Results flagged for a closer look

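PSPH and ALDH1L1 are given here because the response to siRNA-2 differed from that to siRNA-1 in the test of the difference itself. For PSPH siRNA-2 exceeded siRNA-1 by 0.73 (limma adjusted p = 0.0468), with the siRNA-1 array below the controls, and for ALDH1L1 by 1.06 (adjusted p = 0.0419), with both arrays above them. Each siRNA was read on 1 array, so a sequence and an array cannot be told apart. A second ALDH1L1 probe set differed by 0.15 in the same comparison, and those of PSPH by 0.67 and 0.69.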

How the results depend on the processing

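For knockdown against control, 0 genes passed in place of 1 with the mean of a gene's probe sets, without dim genes, with every probe set tested on its own, with robust moderation and with the replicate number as a block, and 0 members passed under each. Leaving out an array gave 0 to 4752 genes and 0 to 6 members; the high ends are those without the siRNA-1 array. Deviations of same-numbered arrays correlated at 0.035. The knockdown arrays also differ in siRNA, so this value cannot exclude a pairing by number. For siRNA-1, 770 genes passed in place of 0 with array medians subtracted, 112 after averaging probe sets and 309 when dim genes were dropped; subtracting medians added 1 member, PSAT1. For siRNA-2, 7953 probe sets passed when each was tested on its own, and the members that passed were 4 to 8: 4 with the last identifier (without PSAT1 and ALDH1L1), 5 with the mean and 5 without probe sets of the _a, _s and _x kinds (without PSAT1), 7 with medians subtracted (with PHGDH) and 8 without dim genes (with PHGDH and MTHFD1). For siRNA-2 against siRNA-1, 3298 genes passed in place of 1402 with medians subtracted, 2108 with the mean, 734 without probe sets of the _a, _s and _x kinds, 3407 without dim genes and 0 with every probe set on its own. Members passing that test were 1 with the mean (PSPH), 1 without those kinds (ALDH1L1), 4 without dim genes (PSPH, MTHFD1, ALDH1L1 and GLDC), 0 with every probe set on its own, 1 with robust moderation (ALDH1L1) and 1 with equal-class choices settled by the last identifier (PSPH). The last identifier and, for the single siRNAs, every probe set on its own were alternatives chosen after seeing the data. Directions turned in 5 of 118 knockdown values and 3 of 68 siRNA-2 values, but many of these could not turn. Robust moderation, the replicate block, dropping dim genes and testing probe sets singly leave the difference of a gene unchanged by design. For PHGDH, GLDC and AMT, with 1 probe set each, so do the choice and averaging of probe sets. Those shares therefore do not measure how stable the directions are. With the last identifier PSAT1 read 0.29 (0.28 with siRNA-2) and ALDH1L1 -0.16 (-0.091 with siRNA-2), and with the mean of probe sets MTHFD2 read -0.11 (-0.12 with siRNA-2). Without 1 knockdown array, PSPH ranged from -0.12 to 0.62 and MTHFD1 from -0.31 to 0.12. PSAT1 had no value without probe sets of those kinds, SHMT1 none without dim genes, and the fit with 3 groups cannot leave out a control. Other causes were not tested.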
